A study of Sus scrofa with 4 samples.

Results

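Potassium channels let potassium leave or enter cells along its gradient and thereby set the membrane voltage. In secretory ducts such as those of the pancreas they keep the cell interior negative, which favours the exit of chloride and bicarbonate into the lumen, and in beta cells a channel closed by ATP couples glucose metabolism to insulin release. The pore-forming genes fall into inward rectifiers (KCNJ), two-pore channels (KCNK), voltage-gated channels (KCNA to KCND, KCNF to KCNH, KCNQ, KCNS and KCNV) and channels opened by calcium or sodium (KCNMA, KCNN, KCNT and KCNU), and auxiliary genes (KCNAB, KCNE, KCNIP and KCNMB) modify the pores.

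The set described here holds every gene whose deposited name is KCN followed by letters and then digits, without KCNJ16 and KCNH8. These were 85 of 30282 genes, with 14 inward rectifiers, 14 two-pore, 36 voltage-gated, 8 calcium- or sodium-activated and 13 auxiliary genes. Each gene's features, 165 in all, were summed, including the 3′ extension that 80 of the genes carried.

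Single cells of 2 porcine pancreatic ductal organoid (PPDO) libraries and 2 primary porcine pancreas libraries were sequenced by a droplet method that counts 3′ ends with unique molecular identifiers (UMIs). PPDO were grown from hand-picked ducts in a medium that contained WNT3a, R-spondin, noggin, EGF, FGF10, the TGF-β receptor inhibitor A83-01, gastrin, PGE2 and nicotinamide. The study describes the organoid lines as late postnatal and adult and at different passages, whereas the sample names in its methods would place both within its late postnatal range, and it could not be read from the labels which of these lines each library holds. By the study's methods, the primary libraries came from 1 wild-type pig, whose ducts were isolated by hand, and 1 pig that carries an eGFP reporter under the insulin promoter, from which cells bound by a duct lectin, eGFP-positive cells and unselected live cells were pooled. The labels of the primary libraries give neither genotype nor preparation. The eGFP features held UMIs in both primary libraries, 9006 in the kept cells of primary library 2 and 146 in those of primary library 1. Among cells called endocrine-like by their markers, 1621 of 2193 held an eGFP UMI in library 2 and 43 of 100 in library 1, so the reporter goes against a wild-type origin of all cells in library 1, and its source there was not tested. By the methods each primary library is 1 animal with its own way of enriching cells, so the makeup of the libraries was set in part by the sort. Culture, passage, donor, age and preparation cannot be told apart in any comparison of PPDO with primary cells.

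After filtering, 8885 and 7337 PPDO cells and 5671 and 4261 primary cells remained, with a median of 34176 and 34459 UMIs per PPDO cell and 10169 and 23651 per primary cell. Any pair of libraries shared between 5 and 18 cell barcodes. Primary cells were clustered without the KCN genes and named from marker lists as ductal-like (2086 and 1189 cells in libraries 1 and 2), endocrine-like (100 and 2193), endothelial-like (1199 and 264), mural-like (440 and 41), myeloid-like (464 and 69), lymphocyte-like (246 and 69) and acinar-like (257 and 53). Fibroblast-like cells (313 and 7) and Schwann-like cells (346 and 1) gave a level in library 1 only. The other 220 and 375 primary cells lay in clusters that stayed unnamed, and classes below means the named ones. The summed level of the 13 ductal markers was 32759 and 35815 counts per 1000000 (CPM; UMIs summed over the cells of a class and divided by all UMIs of that sum) in ductal-like cells and 2362 and 1691 CPM in PPDO. Different clusters formed the ductal-like class in the 2 libraries (clusters 0, 5 and 10 in library 1, clusters 1 and 23 in library 2). Class levels below are descriptions without a test, and 95% Poisson intervals given with them cover counting error only.

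Of the 85 genes, 49 reached 10 CPM in at least 1 primary class, and the remaining 36 stayed below 10 CPM in every class and in PPDO. Among the 49, the highest mean level lay in endocrine-like cells for 14 genes, in fibroblast-like cells for 7, in ductal-like and in mural-like cells for 6 each, in lymphocyte-like cells for 5, in Schwann-like cells for 4, in endothelial-like and in myeloid-like cells for 3 each and in acinar-like cells for 1. For comparison, 13864 genes of the whole table reached 10 CPM in a class, and endocrine-like cells held the highest level of 5.98% of them, against 28.6% of the potassium channel genes. Fibroblast-like cells (14.3% against 9.80%) and mural-like cells (12.2% against 10.98%) led for a larger share of the potassium channel genes than of all genes, acinar-like cells for 2.04% against 2.38%, and the remaining classes for a smaller share: ductal-like 12.2% against 18.2%, lymphocyte-like 10.2% against 18.2%, Schwann-like 8.16% against 12.2%, myeloid-like 6.12% against 12.8% and endothelial-like 6.12% against 9.46%. These shares are descriptions without a test. For 38 of the 49 genes the leading class was measured in both libraries, and in 31 of these both libraries of the leading class were above every library of the class that came next. The leading class was chosen from these same levels, which favours such a gap, and the count has no share over all genes beside it.

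**Figure D1:**
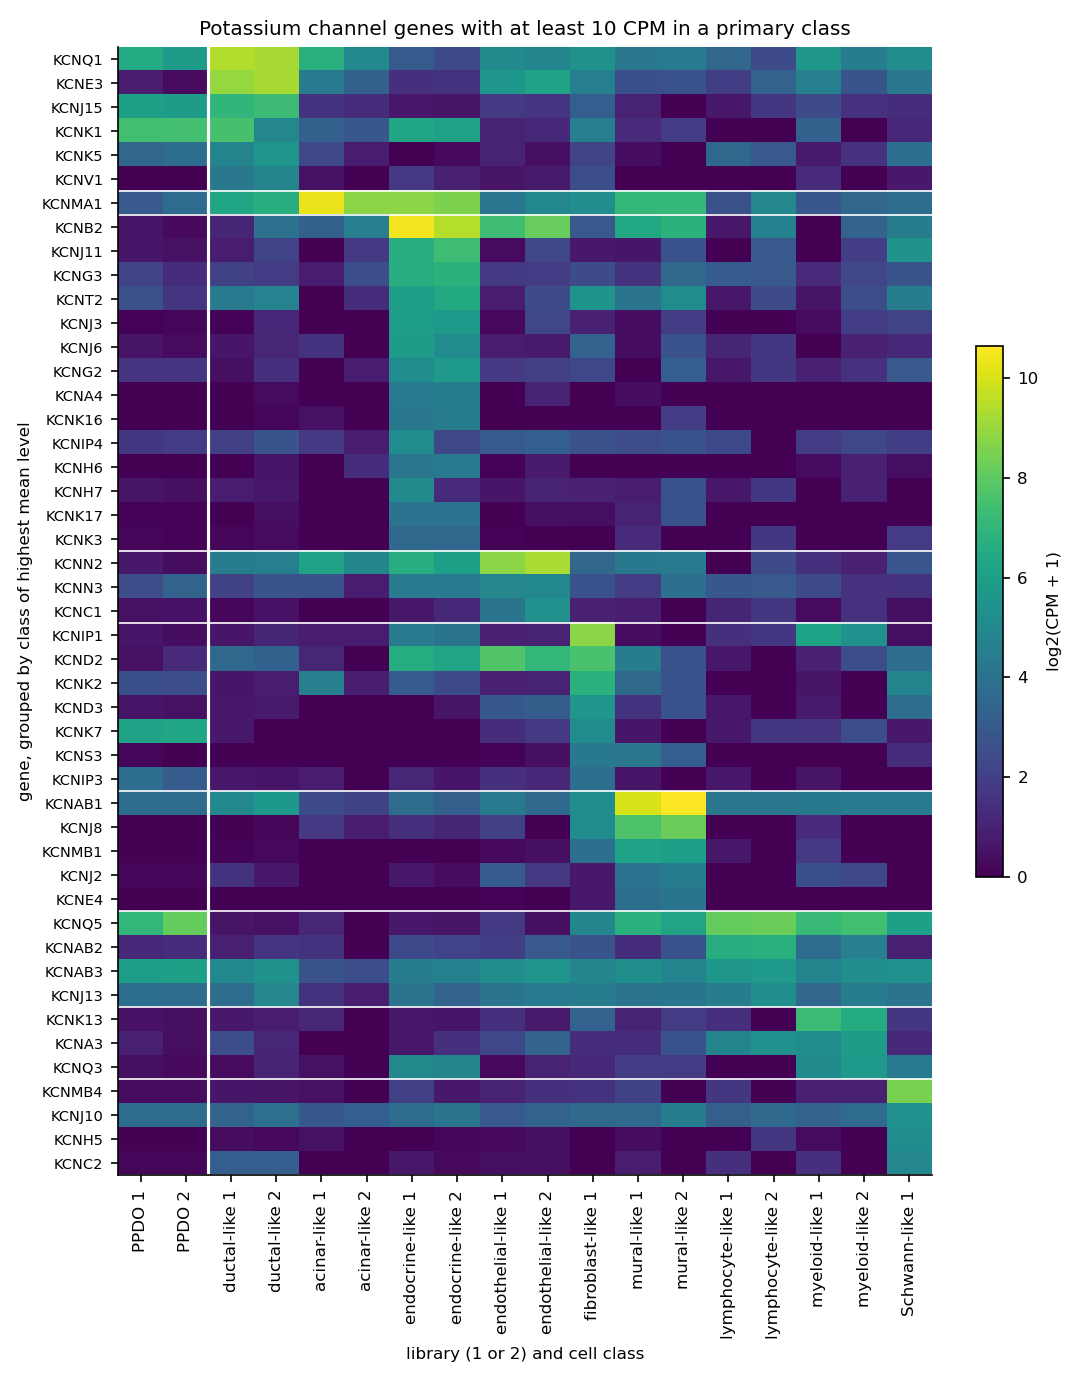
Level of 47 of the 49 potassium channel genes with at least 10 CPM in a primary class, as log2(CPM + 1), in PPDO (left of the white vertical line) and in each primary class and library; rows are grouped by the class of the highest mean. The blocks of high level along the class columns come from this grouping. In PPDO the ductal-like gene KCNE3 is at 0.804 and 0.248 CPM while KCNQ5 is at 133 and 280 CPM.

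Ductal-like cells were marked by a voltage-gated pore and its auxiliary subunit. KCNQ1, whose channel is held open by KCNE3 in secretory epithelia, was at 698 and 614 CPM in ductal-like cells of libraries 1 and 2, with acinar-like cells next at 108 and 30.7 CPM. KCNE3 was at 498 and 613 CPM, with endothelial-like cells next at 47.2 and 68.8 CPM. Both libraries of ductal-like cells were above all other classes for both genes. KCNJ15, an inward rectifier, was at 127 and 159 CPM and at no more than 8.11 CPM in any other named class. KCNK5, a two-pore channel opened by alkaline pH, was at 26.6 and 47.4 CPM, and KCNV1, a subunit that forms no channel alone and modifies other voltage-gated pores, was at 18.0 and 28.3 CPM. After thinning each cell to 3000 UMIs, 68.8% and 76.2% of ductal-like cells held a KCNE3 UMI (92.0% and 97.2% unthinned), against 0.858% and 4.35% of lymphocyte-like cells (2.03% and 5.80% unthinned), which served as a background class; the median depths were 18221 and 20546 UMIs in ductal-like cells and 5744 and 5502 UMIs in lymphocyte-like cells. Thinning left out 77 ductal-like and 13 lymphocyte-like cells of library 1, none of library 2, and 61 and 10 PPDO cells.

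KCNK1, a two-pore channel found in many epithelia, did not have this uniform pattern. Its level in ductal-like cells was 190 CPM in library 1 and 29.6 CPM in library 2, while endocrine-like cells had 75.1 and 67.7 CPM, so that the leading class differed between libraries. Within library 1, KCNK1 was at 242 CPM in ductal-like cluster 0 (1248 cells), at 115 CPM in cluster 10 (347 cells) and at 33.0 CPM in cluster 5 (487 cells). In library 2 it was at 29.7 CPM in cluster 1 (1127 cells) and 26.5 CPM in cluster 23 (61 cells). KCNQ1 lay between 607 and 857 CPM and KCNE3 between 329 and 622 CPM in the same 5 clusters. KCNV1 was at 18.3, 20.4 and 29.0 CPM in clusters 0, 5 and 1 and at 6.88 and 2.79 CPM in clusters 10 and 23, from 19 and 2 UMIs.

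**Figure D2:**
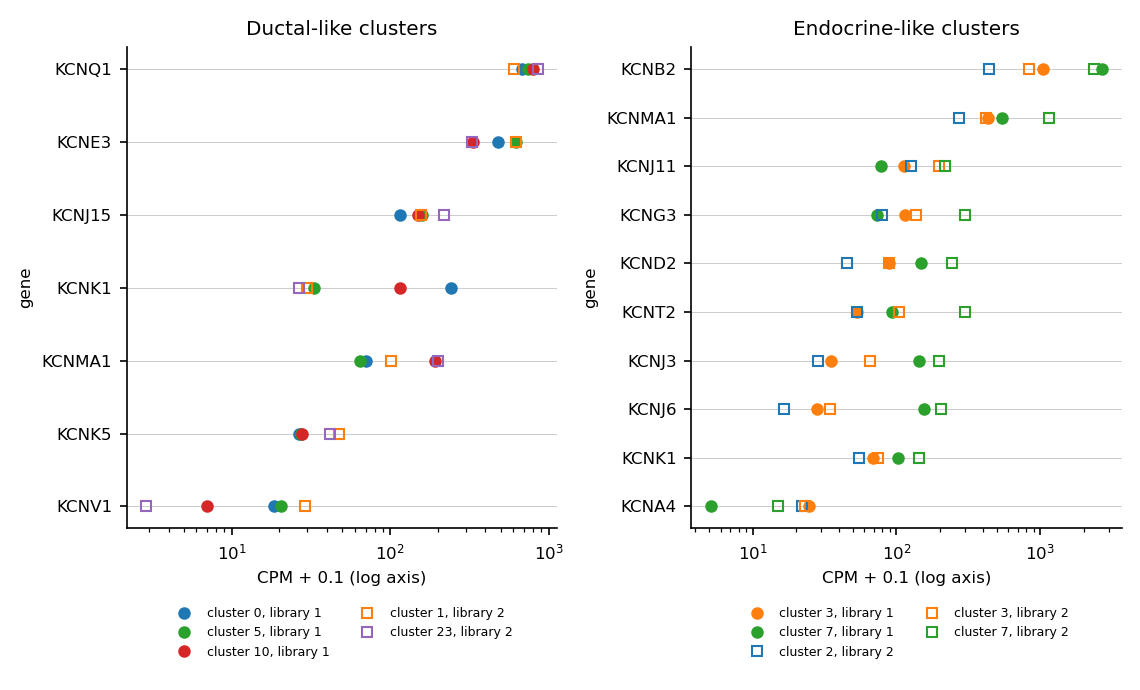
CPM + 0.1 on a log axis for named genes in each ductal-like (left) and endocrine-like (right) cluster; filled circles are library 1, open squares library 2, and colours are clusters. KCNK1 spreads from 26.5 to 242 CPM among ductal-like clusters while KCNQ1 stays within 607 to 857 CPM, and KCNB2 is at 2706 and 2363 CPM in cluster 7 against 440 to 1045 CPM in the INS-led clusters.

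Endocrine-like cells held the largest group. KCNB2, a delayed rectifier of the Kv2 type, was at 1413 and 707 CPM. KCNJ11, the pore of the ATP-sensitive channel, was at 102 and 161 CPM, and the gene of its sulfonylurea receptor partner, ABCC8, at 629 and 516 CPM. Both libraries of endocrine-like cells exceeded every other class for KCNB2 and KCNJ11. KCNJ3 and KCNJ6, pores opened by G protein βγ subunits, were at 61.3 and 52.9 CPM and at 56.5 and 34.0 CPM. KCNG3, a silent subunit that joins Kv2 pores, was at 98.0 and 115 CPM, and KCNT2, a sodium-activated pore, at 59.5 and 87.8 CPM. The remaining endocrine-led genes were lower and included KCNG2, KCNA4, KCNH6, KCNK3 and the alkaline-activated two-pore channels KCNK16 (18.0 and 22.2 CPM) and KCNK17 (15.6 and 15.9 CPM).

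The endocrine-like class held 2 clusters led by INS (2 and 3) and 1 led by GCG and SST (7). KCNB2 was at 1045 and 835 CPM in cluster 3 and at 2706 and 2363 CPM in cluster 7 of libraries 1 and 2, and cluster 2 of library 2 had 440 CPM. KCNJ6 was at 28.0 and 34.6 CPM in cluster 3 and at 155 and 203 CPM in cluster 7, and KCNJ3 at 35.0 and 65.2 CPM and at 143 and 199 CPM. Cluster 7 was above cluster 3 in both libraries for these 3 genes, and above cluster 2 in library 2, the library in which cluster 2 gave a level. KCNA4, an inactivating voltage-gated pore, went the other way, with 24.5 and 23.2 CPM in cluster 3 and 5.02 and 14.99 CPM in cluster 7. KCNJ11 was at 114 and 197 CPM in cluster 3 and at 77.7 and 216 CPM in cluster 7, so its order differed between libraries. The median depth was 45657, 39667 and 8228 UMIs in clusters 2, 3 and 7, and the part of depth and of INS mRNA, which takes up much of a beta cell's counts, in these differences was not tested. KCNIP4 and KCNH7 were listed as endocrine-led on library 1 alone (35.5 and 33.7 CPM) and were at 3.93 and 1.40 CPM in library 2.

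KCNB2 and KCNJ11 also had a level in other classes, given here beside the levels of the endocrine markers in the same cells. Free RNA in a droplet gives a class a small share of the counts of other cells, and the median of the endocrine markers in endothelial-like cells was 0.0517% of their endocrine level in library 1 and 1.80% in library 2. KCNB2 was at 164 and 287 CPM in endothelial-like cells, which is 11.6% and 40.6% of its endocrine level. KCNJ11 was at 42.1 CPM (95% interval 35.1 to 49.98) in Schwann-like cells, 41.2% of its endocrine level, where the markers were at a median of 0.902%, and ABCC8 was at 321 CPM in the same cells. In ductal-like cells of library 2, KCNB2 (14.7 CPM), KCNJ11 (3.55 CPM) and KCNJ3 (1.34 CPM) were at 2.09%, 2.21% and 2.54% of their endocrine level, where the markers had a median of 1.41% and a highest value of 2.83%. The KCNK1 level in endocrine-like cells, 39.6% of that in ductal-like cells in library 1 stood beside a ductal marker median of 0.434% and a highest marker value of 22.0%. The part of free RNA in these levels was not tested.

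Mural-like cells, the smooth muscle and pericyte class, had the highest level of the auxiliary gene KCNAB1, at 1028 and 1615 CPM, with ductal-like cells next at 30.03 and 50.7 CPM. KCNJ8, the vascular pore of the ATP-sensitive channel, was at 206 and 309 CPM, and its partner ABCC9 was at 16.9 and 10.95 CPM in mural-like cells and at no more than 0.601 CPM in ductal-like and endocrine-like cells. KCNMB1, the smooth muscle subunit of the large-conductance calcium-activated channel, was at 68.8 and 60.2 CPM, and the pore of that channel, KCNMA1, was at 135 and 134 CPM in the same cells. KCNJ2 and KCNE4 were also highest here, at 15.5 and 21.9 and at 13.6 and 16.4 CPM. Each of the mural-led genes named here was above all other classes in both libraries. Library 2 held 41 mural-like cells with 365213 UMIs in all, so its KCNJ2, KCNE4 and ABCC9 levels rest on few UMIs.

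KCNMA1 had its highest level among the named classes in acinar-like cells, at 1314 and 440 CPM, and was at 443 and 379 CPM in endocrine-like cells, so these classes overlapped. Library 1 acinar-like cells comprised cluster 18 (108 cells, led by digestive enzyme genes) with 393 CPM and cluster 19 (149 cells) with 2738 CPM. Cluster 19 passed 4 acinar markers, none of which was among its top 10 genes. Cluster 18 of library 2 had 440 CPM, and the order of acinar-like and endocrine-like cells was not resolved on that cluster. The unnamed cluster 9 of library 2 (357 cells) was at 1417 CPM, and 70.4% of the unnamed cells of that library held a KCNMA1 UMI after thinning (74.9% unthinned), against 30.2% of its acinar-like cells (54.7% unthinned).

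In the single fibroblast-like library, KCNIP1, a calcium-binding partner of Kv4 pores, was at 440 CPM (417 to 464), the Kv4 pores KCND2 and KCND3 were at 191 (176 to 207) and 46.4 CPM (39.1 to 54.6), and the mechanosensitive two-pore gene KCNK2 was at 112 CPM (100.4 to 124). A KCNIP1 UMI was found in 17.2% of fibroblast-like cells thinned to 3000 UMIs (17.9% unthinned), so a minority of the cells carried the class level, and a KCNK2 UMI was found in 21.7% (40.6% unthinned). KCND2 was also at 217 and 133 CPM in endothelial-like cells, on both sides of the fibroblast-like value. KCNIP1 was at 71.9 and 41.0 CPM in myeloid-like cells. In the single Schwann-like library, KCNMB4, the neural subunit of the large-conductance channel, was at 360 CPM (339 to 382) and at no more than 1.95 CPM as the mean of any other class. KCNJ10, a glial inward rectifier, was at 41.1 CPM (34.2 to 48.9), KCNH5 at 35.2 CPM (28.9 to 42.5) and KCNC2 at 29.3 CPM (23.6 to 36.1). The pore partner KCNMA1 was at 12.7 CPM in these cells. None of the fibroblast-like or Schwann-like levels has a replicate.

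Endothelial-like cells had the highest level of the small-conductance calcium-activated pores KCNN2, at 445 and 639 CPM, and KCNN3, at 29.8 and 30.8 CPM, and of the fast voltage-gated pore KCNC1, at 16.0 and 41.4 CPM. KCNN2 was at 99.2 and 64.5 CPM in endocrine-like cells. Lymphocyte-like cells had the highest level of KCNQ5, a voltage-gated pore of the M-current, at 281 and 311 CPM, followed by myeloid-like cells at 148 and 170 CPM and mural-like cells at 112 and 73.9 CPM, and these 3 classes did not overlap. KCNAB2 was at 100.1 and 107 CPM in lymphocyte-like cells. KCNA3, the delayed rectifier of T cells, was at 27.1 and 40.8 CPM in lymphocyte-like and 35.0 and 57.2 CPM in myeloid-like cells, which overlapped. KCNK13, a two-pore gene known from microglia, was at 151 and 93.5 CPM in myeloid-like cells and at no more than 9.08 CPM elsewhere, and KCNQ3 was at 31.9 and 53.4 CPM in myeloid-like and 31.3 and 27.8 CPM in endocrine-like cells.

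PPDO held 11 of the 85 genes at a mean of 10 CPM or more, primary ductal-like cells 13, and 8 genes were in both lists. Summed over all 85 genes, the level was 728 and 842 CPM in the PPDO libraries and 1828 and 1887 CPM in the ductal-like sums. By family, the sums in PPDO and in ductal-like cells were 101 and 93.9 against 570 and 726 CPM for auxiliary genes, 93.3 and 83.8 against 158 and 226 CPM for inward rectifiers, 247 and 354 against 757 and 693 CPM for voltage-gated genes and 24.5 and 32.5 against 122 and 160 CPM for calcium- or sodium-activated genes. In ductal-like cells KCNQ1 and KCNE3 together made up most of the total over all genes. KCNE3 alone made up most of the auxiliary sum and KCNQ1 most of the voltage-gated sum. The lower PPDO values of the total and of the auxiliary and voltage-gated sums thus largely follow KCNQ1 and KCNE3. The inward rectifier and the calcium- or sodium-activated sums hold neither gene. The two-pore sum was 263 and 278 CPM in PPDO against 221 and 82.7 CPM in ductal-like cells, where KCNK1 alone made up 190 and 29.6 CPM. The sums were tested gene by gene as 2 against 2 with the quasi-likelihood test of edgeR over all 23508 genes that passed its filter, 69 potassium channel genes among them. At a false discovery rate (FDR) of 0.05, 11 of the 69 were higher in PPDO (15.9%, where 23.0% of all tested genes were higher) and 16 were lower (23.2%, where 20.9% of all were lower). Fewer potassium channel genes, and fewer of all genes, were called when a PPDO library was left out. The median log2 fold change was then −0.45 over the tested potassium channel genes and −0.02 over all genes without PPDO library 1. Without PPDO library 2 these medians were −0.27 and −0.01. With every library the median was −0.34 over the 69 and 0.01 over all tested genes. Without the scaling factors that edgeR applies, the median of all genes moved to −0.44 and the share of calls that were higher fell from 52.4% to 32.3% over all genes. In that fit 9 potassium channel genes (13.0%) were called higher and 18 (26.1%) lower, where 3273 and 6868 of all 23508 genes were. The labels do not say how far the libraries of a group were independent, so the p-values measure the spread between these libraries.

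**Figure D3:**
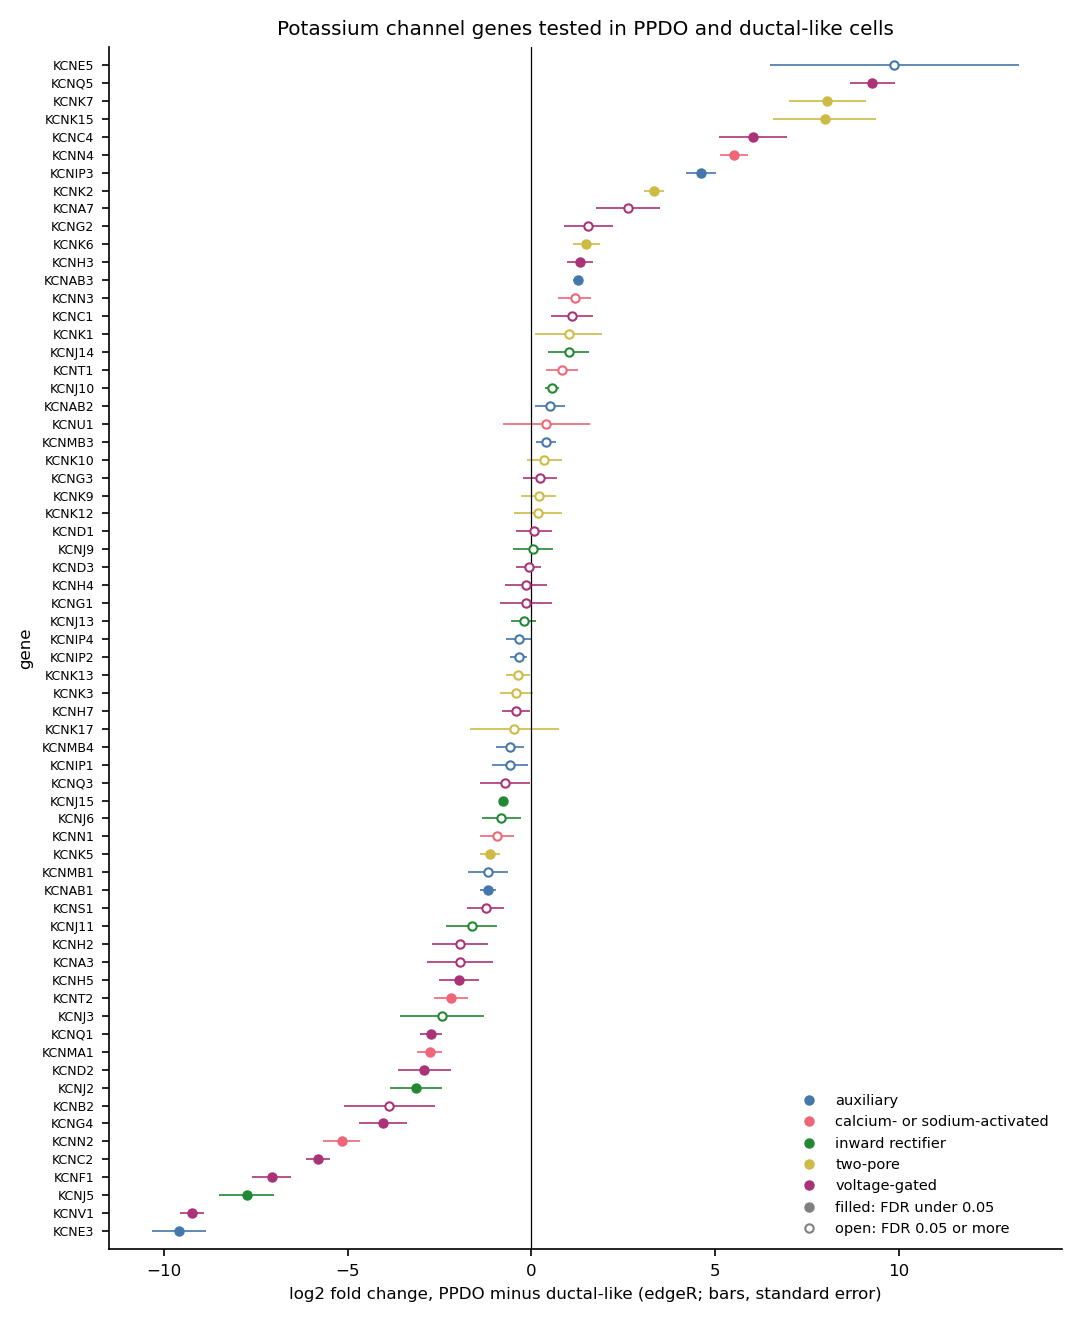
Fitted log2 fold change of 66 of the 69 tested potassium channel genes, PPDO minus primary ductal-like cells, with standard error; colours are families and filled points have an FDR under 0.05. The called genes run from KCNE3 at −9.59 to KCNQ5 at 9.28, and KCNE5, the uppermost point, was not called and had no UMI in ductal-like cells, so its fitted value depends on the prior count.

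By family, 3 of the 10 tested inward rectifiers were lower and none higher. Of 12 tested two-pore genes 4 were higher and 1 lower, of 27 voltage-gated genes 4 were higher and 7 lower, of 8 calcium- or sodium-activated genes 1 was higher and 3 lower, and of 12 auxiliary genes 2 were higher and 2 lower. Over all tested genes 23.0% were higher and 20.9% lower. With 8 to 27 tested genes per family, the family counts are descriptions only. The remaining 42 tested genes did not pass the test. The 16 genes not tested, which had at most 29 UMIs in any of the 4 sums, included KCNA1, KCNA2, KCNA4, KCNA10, KCNE4, KCNH6, KCNJ1, KCNJ4, KCNJ8, KCNJ18, KCNK4, KCNK16, KCNS2, KCNS3 and KCNV2. All 27 called genes had both PPDO libraries on the same side of both ductal-like sums, as did 49 of the 69 tested. Neither count has a share over all genes beside it, and a call on these same values favours such a separation.

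The secretory pair KCNQ1 and KCNE3 fell in PPDO, but not to the same degree. KCNE3 was at 498 and 613 CPM in ductal-like cells and at 0.804 and 0.248 CPM in PPDO, which is a fitted log2 change of −9.59 with a standard error of 0.72 (edgeR FDR = 0.00134; values after ± below are standard errors). KCNQ1 was at 698 and 614 CPM in ductal-like cells and at 91.2 and 55.5 CPM in PPDO, a change of −2.73 ± 0.30 (edgeR FDR = 0.00326). A UMI of KCNE3 was found in 0.204% and 0.0546% of PPDO cells thinned to 3000 UMIs (2.08% and 0.777% unthinned). The lymphocyte-like share given above comes from other libraries and sets no background for PPDO droplets. KCNV1 was at 0.0266 and 0.0267 CPM in PPDO and KCNJ5, an inward rectifier gated by G proteins, at 0.0299 and 0.0305 CPM, against 4.27 and 14.9 CPM in ductal-like cells, with changes of −9.25 ± 0.32 (edgeR FDR = 3.27e-04) and −7.76 ± 0.76 (edgeR FDR = 0.0024).

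**Figure D4:**
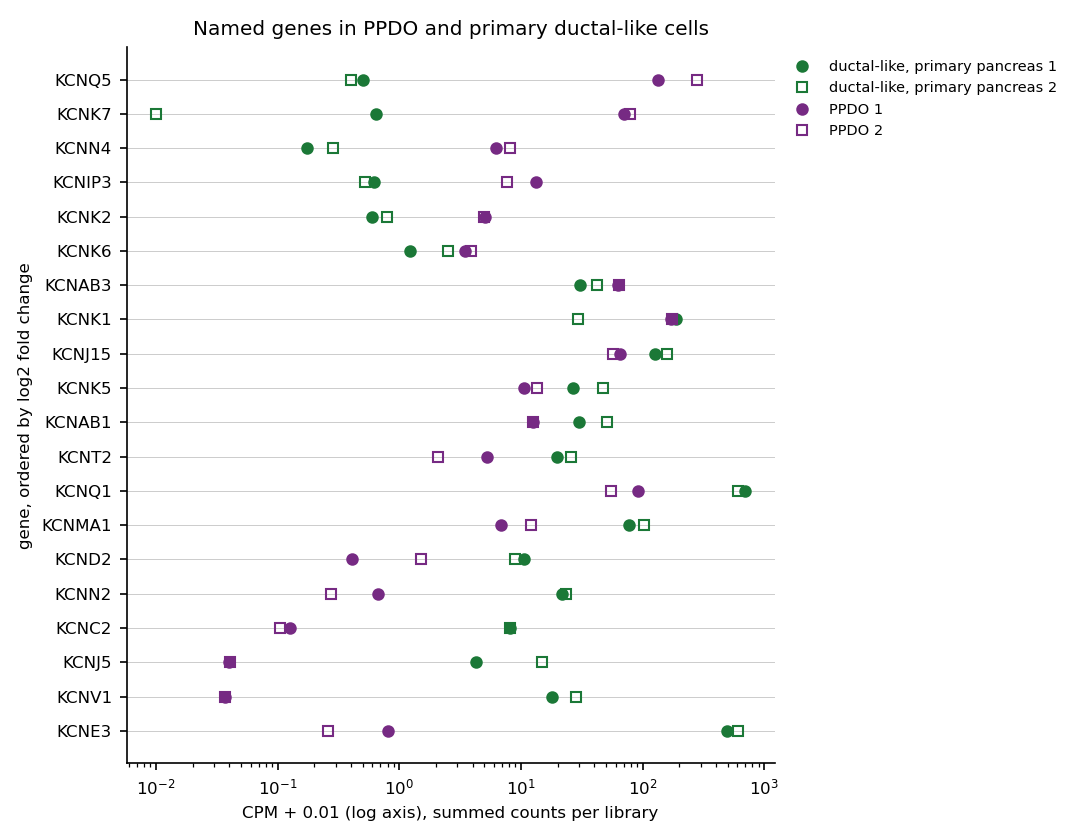
CPM + 0.01 on a log axis for genes named in the comparison, in ductal-like cells of primary pancreas 1 and 2 (green) and in PPDO 1 and 2 (purple), ordered by log2 fold change. All genes shown except KCNK1 passed the test on these same values, so a gap between their groups is built into the choice. For KCNK1 the ductal-like values of 190 and 29.6 CPM lie on both sides of the PPDO values of 171 and 176 CPM.

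Some calcium- or sodium-activated genes and some other voltage-gated genes also fell, although most tested genes of these families did not. KCNMA1, the pore of the large-conductance channel, was at 77.1 and 104 CPM in ductal-like cells and 6.86 and 12.1 CPM in PPDO (−2.77 ± 0.34, edgeR FDR = 0.00437). KCNN2 went from 21.7 and 23.5 CPM to 0.661 and 0.267 CPM and KCNC2 from 8.19 and 8.08 CPM to 0.116 and 0.0953 CPM. KCND2 was at 10.6 and 8.95 CPM in ductal-like cells and at 0.399 and 1.49 CPM in PPDO, and KCNT2 at 19.8 and 25.6 CPM and at 5.21 and 2.08 CPM. KCNAB1, KCNK5 and KCNJ15 kept a larger share of their level: KCNAB1 was at 12.7 and 12.6 CPM in PPDO (−1.19 ± 0.22, edgeR FDR = 0.0127), KCNK5 at 10.6 and 13.5 CPM (−1.13 ± 0.27, edgeR FDR = 0.0282) and KCNJ15 at 64.8 and 57.3 CPM (−0.77 ± 0.13, edgeR FDR = 0.00924). These 3 genes were not called without either PPDO library, KCNK5 and KCNT2 were not called without primary library 2, and KCND2 was not called without either primary library. The other genes that fell, all under 2 CPM in both groups, were KCNF1, KCNG4, KCNJ2 and KCNH5.

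Some of the genes that fell were highest in other primary classes, whose free RNA can reach ductal-like droplets. KCNN2 in ductal-like cells was at 4.88% and 3.69% of its endothelial-like level, where the 12 endothelial markers were at a median of 0.350% and 0.241% and at most at 4.25% and 7.26%. KCNMA1 was at 5.86% and 23.6% of its acinar-like level (marker medians 0.461% and 0.157%, highest 9.87% and 20.8%) and KCNT2 at 33.2% and 29.2% of its endocrine-like level (marker medians 0.0443% and 1.41%, highest 1.23% and 2.83%). The acinar-like KCNMA1 level of library 1 joins cluster 18 at 393 CPM and cluster 19 at 2738 CPM. In library 2 the unnamed cluster 9, at 1417 CPM, and endocrine-like cells also held KCNMA1. KCNC2 was at 27.9% of its Schwann-like level and KCND2 at 5.57% of its fibroblast-like level (marker medians 0.347% and 0.0505%, highest 71.2% and 0.413%). KCNAB1 was highest in mural-like cells, with the levels given above. The 13 mural markers were in ductal-like cells at a median of 0.109% and 0.0775% of their mural-like level (highest 6.02% and 6.39%). The part of free RNA in these differences was not tested. The summed level of the endocrine markers was 150 and 8001 CPM in ductal-like cells and 18.1 and 19.3 CPM in PPDO, and the endothelial marker sum was 100.1 and 77.4 CPM against 77.1 and 66.3 CPM. KCNB2, at 1.15 and 14.7 CPM in ductal-like cells and 0.522 and 0.217 CPM in PPDO, did not pass the test (edgeR FDR = 0.0602).

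KCNQ5 and KCNK7 rose most among the genes with 2 CPM or more. KCNQ5 was at 0.493 and 0.394 CPM in ductal-like cells and at 133 and 280 CPM in PPDO (9.28 ± 0.61, edgeR FDR = 9.93e-04). Of PPDO cells thinned to 3000 UMIs, 18.9% and 31.6% held a KCNQ5 UMI (46.0% and 62.7% unthinned), against 0.398% and 0.0841% of ductal-like cells (1.01% and 0.841%). The 12 lymphocyte markers summed to 1814 and 2015 CPM in PPDO, 554 and 585 CPM in ductal-like cells and 3596 and 4405 CPM in lymphocyte-like cells. CD79A alone made up 99.0% and 99.3% of the sum in PPDO (1795 and 2002 CPM). CD8A was at 17.4 and 12.3 CPM in PPDO and at 3.92 and 11.7 CPM in ductal-like cells. The other 10 of the 12 markers were under 5 CPM in both PPDO libraries, but CD3G and MS4A1 among them were at 0 CPM in lymphocyte-like cells as well. Of the 12 markers, 3 were higher in both PPDO libraries than in both ductal-like sums. The 13 myeloid markers summed to 30.8 and 26.2 CPM in PPDO and to 7134 and 7863 CPM in myeloid-like cells. KCNK7, a two-pore subunit that carries no current on its own, was at 0.634 and 0 CPM in ductal-like cells, from 27 and 0 UMIs, and at 70.4 and 78.2 CPM in PPDO (8.06 ± 1.06, edgeR FDR = 0.00512). Its highest primary class was fibroblast-like at 34.4 CPM (28.1 to 41.6), and the 11 fibroblast markers summed to 8.74 and 10.1 CPM in PPDO and 24548 CPM in fibroblast-like cells.

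KCNN4, the intermediate-conductance calcium-activated pore that serves chloride secretion in many epithelia, rose from 0.164 and 0.276 CPM to 6.19 and 8.07 CPM (5.52 ± 0.38, edgeR FDR = 0.00107), and was at most at 0.571 CPM as the mean of any named primary class. KCNIP3 rose from 0.610 and 0.513 CPM to 13.3 and 7.65 CPM (4.63 ± 0.41, edgeR FDR = 0.00188) and KCNK2 from 0.587 and 0.789 CPM to 5.09 and 4.96 CPM (3.34 ± 0.28, edgeR FDR = 0.00164). KCNK6 was at 1.22 and 2.48 CPM in ductal-like cells and 3.47 and 3.89 CPM in PPDO (1.49 ± 0.36, edgeR FDR = 0.0295), and was not called without either PPDO library or without the scaling factors. KCNAB3, an auxiliary gene, was at 30.5 and 42.0 CPM and at 62.8 and 63.5 CPM (1.27 ± 0.14, edgeR FDR = 0.00344). KCNH3, KCNC4 and KCNK15 also rose at low levels. KCNK15 had 73 and 38 UMIs in PPDO and none in any primary cell, which makes it at least 1.22-fold higher than ductal-like cells and at least 3.66-fold higher than all primary cells, against a floor of 3 UMIs per library, and KCNC4, with 1 UMI in ductal-like cells, was 54.2 times higher in PPDO with a counting interval of 9.68 to 2145.

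KCNK1 was the potassium channel gene at 20 CPM or more in both groups that did not pass the test. It was at 171 and 176 CPM in PPDO and at 190 and 29.6 CPM in ductal-like cells (1.01 ± 0.91, edgeR FDR = 0.408). Without primary library 1 the change was 3.09 (edgeR FDR = 0.00156). In PPDO its level was between 120 and 201 CPM in every cluster and library. KCNJ13 and KCNJ10 were other genes at 10 CPM or more in both, at 13.6 and 12.6 CPM and at 13.2 and 12.6 CPM in PPDO.

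Against all primary cells, 8 of 79 tested potassium channel genes were higher in PPDO (11.9% of all 24753 tested genes were higher) and 14 were lower (13.7% of all). KCNB2 was lower, at 0.522 and 0.217 CPM in PPDO and 64.5 and 521 CPM over all primary cells (−9.52 ± 1.74, edgeR FDR = 0.0334), as were KCNE3, KCNV1, KCNN2, KCNIP1 and KCNJ8. KCNK1 was higher in this comparison (1.41 ± 0.26, edgeR FDR = 0.0343), beside KCNAB3, KCNIP3, KCNN4, KCNK7, KCNK15, KCNC4 and KCNA7. The primary libraries differed in their share of endocrine-like cells (100 and 2193 cells), and none of these edgeR calls held when either PPDO library was left out. DESeq2 called 43 of the 79 potassium channel genes lower, where 5702 of all 24753 tested genes were lower. The calls also changed when a primary library was left out. The median log2 fold change was −1.96 over the potassium channel genes and −0.12 over all genes with every library. It was −1.42 and −0.04 without primary library 1 and −1.29 and −0.03 without primary library 2. Without the scaling factors the share of calls that were higher went from 46.5% to 23.5% over all genes, and 4 potassium channel genes were called higher and 15 lower. In these bulk sums, fewer cells of a type and less RNA per cell cannot be told apart.

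Across the 8 PPDO clusters, 3 of the 11 genes with a mean of 10 CPM or more differed by at least 3 times between the highest and the lowest cluster in both libraries. The share of all genes that differ as much is not given, so this count is a description only. The clusters were named, as far as markers allowed, WNT-like (0), basal-like (1), glycolysis and hypoxia-like (2), cornifying-like (4), replicating-like (5), proliferating-like (6) and ductal-like (7), and cluster 3 stayed unnamed. KCNJ15 was highest in cluster 3, at 111 CPM in both libraries, and lowest in the glycolysis and hypoxia-like cluster, at 34.8 and 27.6 CPM. KCNIP3, a calcium sensor, was highest in that cluster, at 32.1 and 19.9 CPM, and lowest in the replicating-like cluster, at 5.49 and 3.15 CPM. KCNQ5 was at 174 and 533 CPM in the replicating-like and at 42.2 and 129 CPM in the glycolysis and hypoxia-like cluster. In the ductal-like cluster, KCNQ5 was at 268 CPM in library 1 and 55.3 CPM in library 2, so the libraries did not share its order across clusters.

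**Figure D5:**
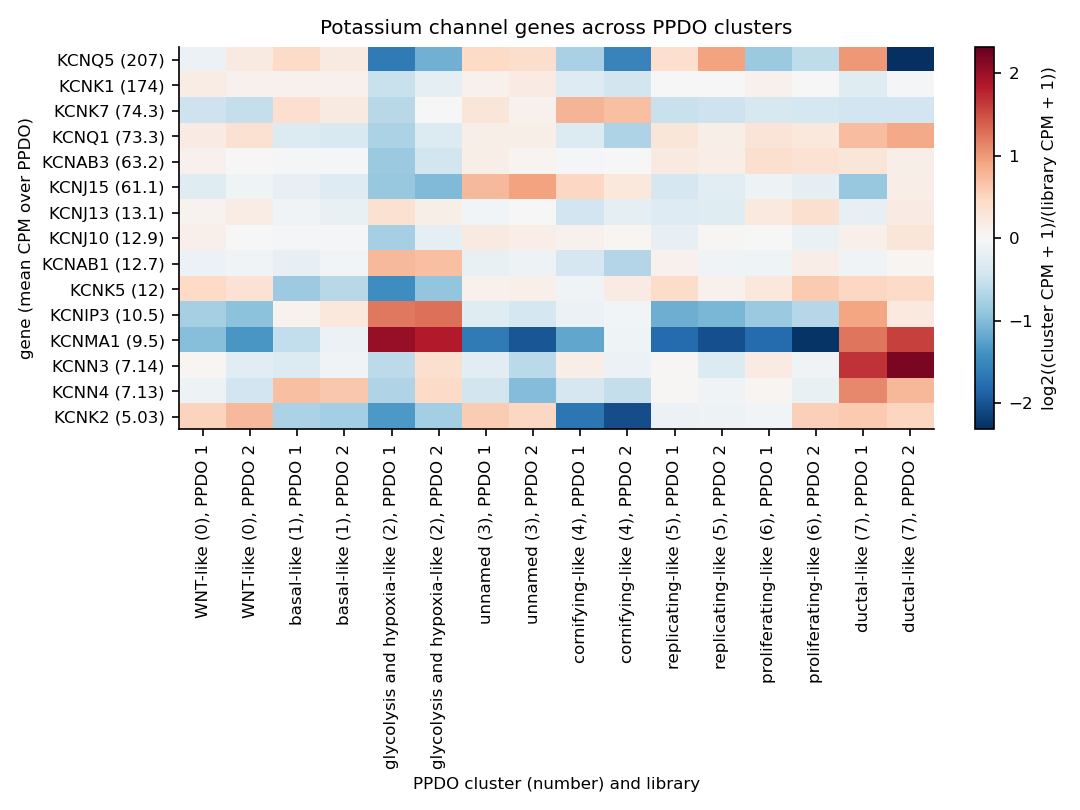
Log2 ratio of a gene's level (CPM + 1) in a PPDO cluster to its level (CPM + 1) in the whole library, for genes with at least 5 CPM over PPDO, whose mean CPM stands beside the name. KCNMA1 is high in clusters 2 and 7 of both libraries, KCNN3 in cluster 7, and KCNQ5 has opposite signs in cluster 7 of the 2 libraries.

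The ductal-like PPDO cluster (493 cells) had the highest PPDO level of KCNQ1, at 150 and 103 CPM, and of KCNN4, at 14.6 and 14.4 CPM. These KCNQ1 levels were below those of primary ductal-like cells, 698 and 614 CPM. KCNMA1, just under 10 CPM over all PPDO cells, was at 30.9 and 46.2 CPM in the glycolysis and hypoxia-like cluster, at 17.5 and 38.5 CPM in the ductal-like cluster and at 1.27 and 1.72 CPM in the proliferating-like cluster. KCNK7 was highest in the cornifying-like cluster, at 122 and 127 CPM, and lowest as a mean in the WNT-like cluster, at 50.02 and 53.0 CPM. KCNK2 was at 7.73 and 9.02 CPM in the WNT-like and at 0.911 and 0.429 CPM in the cornifying-like cluster. Median depth in the glycolysis and hypoxia-like cluster was 22420 UMIs, against 31565 to 45676 UMIs in the other clusters, and its part in these differences was not tested.

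Of 31 partner genes listed (regulatory subunits of these channels, HCN channels, pumps that move potassium and organelle potassium channels), 24 were matched, 2 rose, 4 fell, 13 did not pass the test and 5 were not tested, where 23.0% of all tested genes were higher and 20.9% lower. ATP1B1, a subunit of the sodium-potassium pump that builds the gradient the channels use, fell from 1175 and 1091 CPM in ductal-like cells to 130 and 157 CPM in PPDO (−2.53 ± 0.22, edgeR FDR = 0.00181). FXYD3, a regulator of that pump, was at 0.258 and 2.25 CPM in ductal-like cells and 881 and 869 CPM in PPDO (10.06 ± 1.05, edgeR FDR = 0.00283). TMEM38B, an intracellular potassium channel, was at 37.7 and 39.9 CPM and at 45.9 and 42.6 CPM (0.64 ± 0.14, edgeR FDR = 0.0217). These CPM are without the scaling factors of edgeR, which enter the fitted change and make up much of it for this gene. The factors were 0.877 and 0.833 for PPDO and 1.07 and 1.28 for the ductal-like sums. DPP10 and TMEM38A also fell.

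Of the 85 genes, 81 were placed on a chromosome by the RefSeq annotation of Sscrofa11.1, the build named in the submitters' processing notes. KCNE3 (ENSSSCG00000029323) lies at chr9:8810716-8822191, KCNQ1 (ENSSSCG00000039556) at chr2:1675323-1989110, KCNQ5 (ENSSSCG00000004281) at chr1:52435332-52939705, KCNB2 (ENSSSCG00000006185) at chr4:62877838-63306314 and KCNK7 (ENSSSCG00000012986) at chr2:6657841-6662445, within 10 kb of MAP3K11 and EHBP1L1. Reads from overlapping genes may not be told apart. KCNJ13 overlaps GIGYF2 and was between 0.808 and 38.5 CPM in all 18 class and PPDO sums, and KCNIP1 and KCNMB1 overlap each other at chr16:53272652-53694974 and chr16:53616532-53631197 yet led in fibroblast-like and mural-like cells. KCNJ10 was at least at 6.75 CPM in every sum, and 99.9% of its PPDO and 97.0% of its primary UMIs came from its 3′ extension. KCNJ18 is a near copy of KCNJ12, so its counts are uncertain.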

How the data were processed

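Per the file headers, the deposited counts are UMIs per feature and cell from Cell Ranger 7.1.0, and the authors used a pig annotation with added 3′ extension and merged-isoform features; the counts are raw, before the authors' correction for free RNA. The submitters' processing notes name Sscrofa11.1. Features were summed to genes. PPDO cells with 1000 to 9000 features and at most 3% mitochondrial UMIs were kept. Primary cells had over 400 (library 1) or 800 features and 3000 UMIs (library 2), under 9000 features and under 8% mitochondrial UMIs, and 89 and 154 doublets called by Scrublet were removed; no doublet caller was run on PPDO. Cells were clustered with scanpy 1.11.5 and leidenalg 0.10.2 (2000 variable genes without KCN genes, 20 components, resolution 0.5). A cluster was named from its marker list. UMIs were summed per library and class (300990260 and 262372786 for PPDO, 42620189 and 25362992 for ductal-like cells) and tested with edgeR 4.0.16 (quasi-likelihood, Benjamini-Hochberg adjustment over all tested genes), after tests on simulated data; DESeq2 1.42.0 was an alternative. The members and lists were chosen with earlier results of these data known. Named were up to 12 called genes per direction with at least 2 CPM, genes with at least 20 CPM in both groups, up to 6 genes per leading class with at least 10 CPM, and genes with 10 CPM or more in PPDO that differed 3 times between clusters. Classes with under 20 cells in a library gave it no level. Other genes given with values, such as KCNG2 and KCNH7, were chosen after their values were seen. Some genes of the set are counted but not reported here by name. No sequence was used here.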

Additional observations from a re-analysis of the deposited data

How the results depend on the processing

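With 2 libraries per group, the counts of calls depended on the tool and on single libraries. Against ductal-like cells, the number of potassium channel genes called lower ranged from 10 to 17 when 1 library was left out, the number called higher from 8 to 13, all called potassium channel genes from 18 to 30, and all genes called from 4526 to 10664 (16, 11, 27 and 10309 with every library). All other alternatives (DESeq2, no scaling factors, no filter, thinned sums, resolutions 0.3 and 0.8, doublets kept, KCN genes kept in clustering, and, chosen after seeing the data, no 3′ extensions and only the deeper ductal-like clusters) stayed within 1.5 times of these counts. Over the 21 named genes, 301 refits kept direction and call, 13 lost the call and 1, KCNK1 without primary library 1, gained it. All of these genes except KCNK1 were named because the main fit called them, so the count does not measure how often calls hold over all genes. KCNAB1, KCNJ15, KCNK5 and KCNK6 lost the call without either PPDO library, KCND2 without either primary library, KCNK5 and KCNT2 without primary library 2, and KCNK6 also without scaling factors. Against all primary cells, DESeq2 called 43 potassium channel genes lower (5702 of all genes) and 54 in all (10165 of all genes). Without scaling factors 4 were called higher (1027 of all genes). There, leaving out 1 library gave 0 to 12 higher, 0 to 41 lower, 0 to 52 in all and 0 to 13014 of all genes. Without PPDO replicate 1 or 2 edgeR called 0 genes, with 5138 and 4844 genes, 24 potassium channel genes in each case, at an unadjusted p under 0.05. Same-numbered libraries did not deviate together (r = −0.0115 against ductal-like and −0.0240 against all primary cells). The primary libraries also differed in how their cells were enriched, so this r cannot exclude a pairing by number. With the replicate number as a block, 12 potassium channel genes were called higher and 15 lower against ductal-like cells (8226 of all genes). Against all primary cells 3 were then called higher and 13 lower (2603 of all genes). Without primary library 1 no level exists for fibroblast-like and Schwann-like cells, so 0 genes led there, against 6 and 4 without primary library 2. Over PPDO clusters, 3 genes passed with both libraries, 5 without library 1 (2 of the 3 among them) and 4 without library 2. A planned run without merged-isoform features was not made, since for many genes that feature is the gene model itself.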
